A study of Mus musculus with 15 samples.

Results

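Amino acid transporters were followed through left ventricle of male mice aged 225 days, 7 with chronic kidney disease and 8 wild type. The 10 genes are Slc36a1, Slc36a2, Slc36a4, Slc7a1, Slc7a5, Slc7a8, Slc3a2, Slc38a2, Slc38a3 and Slc1a5, out of 55487 genes in the count tables. They were chosen by name, with earlier results of the same comparison in view: Slc36a2 was picked because it was among the genes that fell in kidney disease, and the others are further amino acid transporters and their heavy chain. Values of Slc36a2 in that comparison are therefore a description. All 10 passed the filter on low counts, in which 20718 genes were kept and tested.

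The kidney disease mice carry a mutation of Col4a5, an X-linked gene for a type IV collagen chain of the kidney filter. The labels call it a knockdown and the design text a knockout. The controls were wild-type littermates, housed with the mutants and given the same normal chow. Per the labels, the mutants had by then reached the equivalent of late-stage human disease. Neither the strain nor the kind of allele could be taken from the sources at hand. As anaesthetic, isoflurane stands in the titles and ketamine/xylazine in the protocol. The tissue was a piece of the free wall, so it holds all cell types of the ventricle, and fewer cells of a type and less RNA per cell cannot be told apart. Ribosomal RNA was removed before sequencing. Col4a5 itself had 13.5 ± 2.97 CPM (reads counted in a gene, scaled to a common library size) in kidney disease (SD, n = 7) and 57.0 ± 4.93 CPM in wild type (SD, n = 8). Myh6, the main myosin gene of the mouse ventricle, averaged 37399 CPM in kidney disease and 43626 CPM in wild type.

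Cells take up amino acids through families of membrane carriers that differ in substrate and driving force. SLC36A1 and SLC36A2 carry small neutral amino acids such as glycine, alanine and proline together with a proton. SLC7A5 and SLC7A8 exchange large neutral amino acids, leucine among them, and reach the membrane only when bound to the SLC3A2 heavy chain. SLC38A2, SLC38A3 and SLC1A5 move glutamine and other neutral amino acids with sodium, and SLC7A1 carries arginine and lysine. Uptake of leucine, glutamine and arginine feeds protein synthesis through the mTORC1 kinase, and in amino acid shortage the factor ATF4 raises several of these genes.

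Slc36a2 and Slc36a1 are neighbours that share part of their sequence, which bears on how far their counts are separate. Slc36a2 lies on chromosome 11 from 55158470 to 55185077 on the minus strand, and Slc36a1 from 55204350 to 55236330 on the plus strand (GRCm38). The genes point away from each other, with 19272 bases between their starts. Their coding sequences in GENCODE M21 were 76.9% identical over 1405 aligned bases, against 64.1% for Slc36a2 and Slc36a4. The identity was uneven. A run of 137 bases in the last coding exon was the same in both genes, exon 10 of Slc36a2 (55159440 to 55159576) and exon 11 of Slc36a1 (55232406 to 55232542). The run is printed here because it marks where the 2 counts can mix, in the direction of the transcript, with 20 aligned bases on each side. Capitals mark the 3 bases that differ.
Slc36a2: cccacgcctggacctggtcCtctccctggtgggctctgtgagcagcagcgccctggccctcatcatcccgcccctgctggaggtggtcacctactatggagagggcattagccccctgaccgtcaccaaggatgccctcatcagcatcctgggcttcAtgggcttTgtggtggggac
Slc36a1: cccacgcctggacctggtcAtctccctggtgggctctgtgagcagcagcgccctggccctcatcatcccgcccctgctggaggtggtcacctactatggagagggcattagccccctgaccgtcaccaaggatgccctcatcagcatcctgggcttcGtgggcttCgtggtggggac
A read from inside the run fits both genes. The run makes up 4.21% of the exon length of Slc36a2 and 2.44% of that of Slc36a1. Of all words of 50 bases in Slc36a2 transcripts, 2.75% also occurred in another gene, each time Slc36a1. The share was 3.51% for Slc3a2, 1.64% for Slc36a1 and at most 0.147% for the other 7 members, and was 0% for Slc36a4, Slc7a5, Slc38a2, Slc38a3 and Slc1a5. How the authors counted reads that fit several places was not stated in the sources at hand. No exon of a member overlapped an exon of another gene on either strand.

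Slc36a2, which encodes the proton-coupled carrier of glycine, alanine and proline known as PAT2, was among the genes that fell, which is how it was chosen, and its groups did not overlap. It had 17.7, 14.7, 17.4, 16.3, 18.5, 13.4 and 15.4 CPM in the kidney disease libraries, against 21.7, 27.4, 24.5, 22.8, 21.9, 20.7, 21.8 and 18.5 CPM in the wild-type libraries. The groups met at the edge: kidney disease 5 and wild type 8 differed by less than 0.1 CPM, while wild type 2 stood highest. The mean was 16.2 ± 1.79 CPM in kidney disease (SD, n = 7) and 22.4 ± 2.63 CPM in wild type (SD, n = 8). The fitted log2 change, kidney disease minus wild type, was -0.47 (SE 0.08), or a level 27.8% lower. Raw counts numbered 829 to 1212 (kidney disease) and 896 to 1520 (wild type). The deposited FPKM (CPM per kilobase of exon) adjusts for each library's total but lacks the TMM scaling of the CPM above. On that scale the ranges overlapped, with 4.13 to 6.02 FPKM among kidney disease animals and 5.64 to 8.24 FPKM among wild-type animals.

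**Figure D1:**
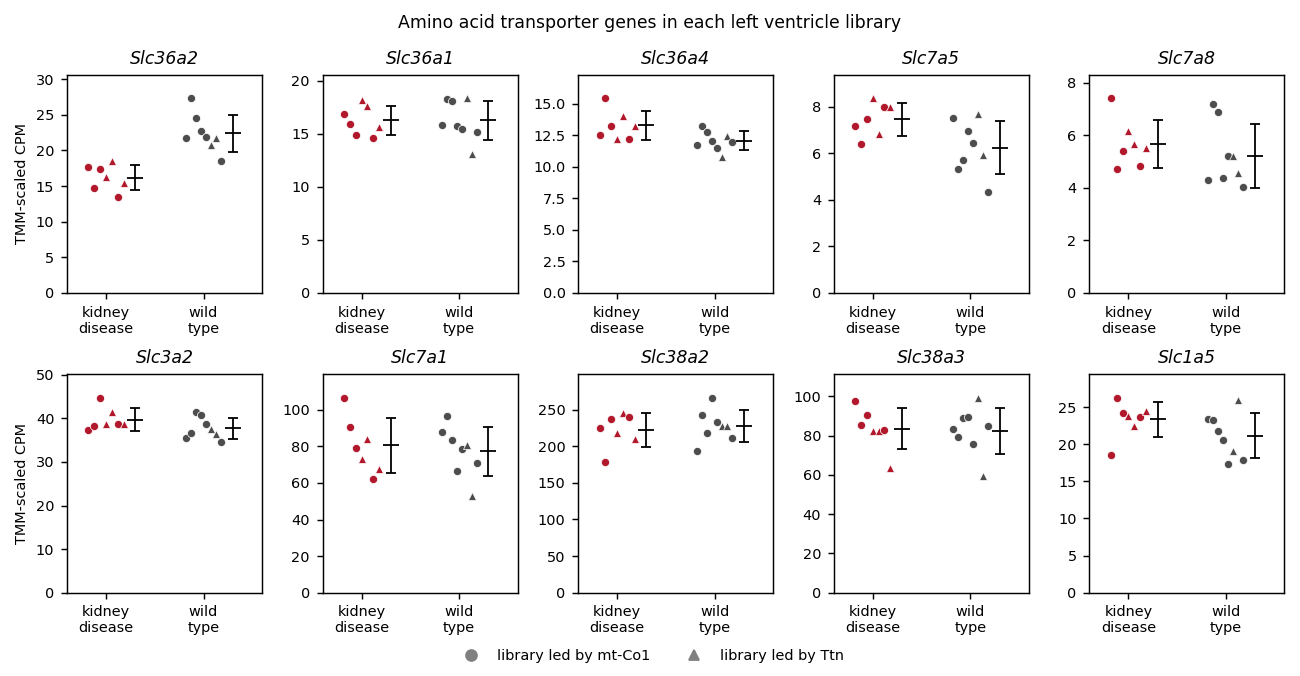
TMM-scaled CPM of each amino acid transporter gene in each library, with kidney disease left and wild type right, the mean and SD beside the points, and the marker shape giving the gene with the most counts in the library. Slc36a2 ran from 13.4 to 18.5 CPM (kidney disease) and from 18.5 to 27.4 CPM (wild type), and the other 9 genes overlapped between the groups.

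Across the 10 members, 1 was called lower, Slc36a2, and none higher, at an adjusted p under 0.05 in edgeR's quasi-likelihood test. Of all genes tested, 0.473% were called lower, 0.811% higher and 1.28% in either direction. The single call among the members is the one that Slc36a2 was chosen for, so nothing is read from it. Likewise, 0.179% of all genes had every kidney disease library below every wild-type library, and Slc36a2 was the member among them. For the opposite order the share was 0.386%, with 0 members. The median log2 change was 0.07 over the members and 0.0042 over all genes tested. At an unadjusted p under 0.05, 2 members were higher and 1 lower, and 12.4% of all genes passed that limit.

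Neither of the other SLC36 genes among the members passed the test. Slc36a1, which encodes PAT1 of the lysosome and the plasma membrane, had 16.9, 15.9, 14.9, 18.2, 17.7, 14.6 and 15.7 CPM in kidney disease, against 15.8, 18.3, 18.1, 15.8, 15.5, 18.4, 13.1 and 15.2 CPM in wild type. The groups overlapped throughout, with both means at 16.3 CPM. Its log2 change had an interval of -0.15 to 0.15 (95%, adjusted p = 1.00 by edgeR). Slc36a4, the gene of the proline and tryptophan carrier PAT4 (chromosome 9, 15709738 to 15743361), had 12.6, 15.5, 13.3, 12.2, 14.0, 12.2 and 13.3 CPM in kidney disease, against 10.8 to 13.2 CPM in wild type. All 7 kidney disease libraries lay above the wild-type mean and 4 above the highest wild-type library. Its log2 change of 0.14 (SE 0.06, adjusted p = 0.38 by edgeR) did not pass. Slc36a3, which sits next to Slc36a2 on the other side, was all but silent, at 0 to 2 counts (kidney disease) and 0 to 1 (wild type) in each library.

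Per library, the deposited FPKM of Slc36a2 was 1.55 to 2.01 times that of Slc36a1 among kidney disease animals and 1.95 to 2.87 times among wild-type animals. Against Slc36a4 it was 1.91 to 2.82 times among kidney disease animals and 3.10 to 4.16 times among wild-type animals, without overlap. These ratios rest on the values for which Slc36a2 was chosen and were not tested.

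No tested neighbour of Slc36a2 on chromosome 11 passed. The nearest tested genes on one side, the pseudogene Gm12231 and the ganglioside activator gene Gm2a, had log2 changes of -0.09 (SE 0.10, adjusted p = 0.80 by edgeR) and 0.13 (SE 0.05, adjusted p = 0.30). On the other side lay Slc36a1 and Fat2, a gene of an atypical cadherin, at -0.32 (SE 0.21, adjusted p = 0.60).

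The partners of the leucine exchange system were higher on average in kidney disease, and none of them passed. Slc7a5, which encodes the light chain LAT1 (chromosome 8, 121881150 to 121907694), had 7.16, 6.39, 7.48, 8.38, 6.82, 7.99 and 7.98 CPM in kidney disease, against 7.53, 5.33, 5.69, 6.95, 6.44, 7.69, 5.92 and 4.34 CPM in wild type. All 7 kidney disease libraries lay above the wild-type mean and 3 above the highest wild-type library. With a log2 change of 0.26 (SE 0.11, adjusted p = 0.32 by edgeR), it had the largest positive value among the members. Slc7a8, the gene of the light chain LAT2 (chromosome 14, 54722209 to 54781946), averaged 5.68 ± 0.915 CPM in kidney disease and 5.22 ± 1.20 CPM in wild type, a log2 change of 0.12 (SE 0.13, adjusted p = 0.80). Slc3a2, the gene of their common heavy chain CD98 (chromosome 19, 8706882 to 8723369), averaged 39.7 ± 2.57 CPM in kidney disease and 37.7 ± 2.43 CPM in wild type, a log2 change of 0.07 (SE 0.05, adjusted p = 0.65). Per kilobase, Slc3a2 transcripts outnumbered those of its light chains in every library: the FPKM of Slc3a2 was 1.34 to 1.88 times the sum over 6 light chain genes among kidney disease animals and 1.39 to 2.21 times among wild-type animals. The 6 were Slc7a5, Slc7a6, Slc7a7, Slc7a8, Slc7a10 and Slc7a11.

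Of the carriers of glutamine and of cationic amino acids, none passed. Slc38a2, which encodes the sodium-coupled carrier SNAT2 (chromosome 15, 96687392 to 96699730), had 225, 179, 237, 218, 245, 240 and 210 CPM in kidney disease, against 194.1, 242, 218, 266, 232, 228, 227 and 211 CPM in wild type, a log2 change of -0.03 (SE 0.07, adjusted p = 0.91 by edgeR). Its groups overlapped almost fully, with an interval of -0.18 to 0.11. Slc38a3, the gene of the glutamine carrier SNAT3 (chromosome 9, 107650634 to 107669530), averaged 83.6 ± 10.5 CPM in kidney disease and 82.5 ± 11.7 CPM in wild type, with an interval of -0.17 to 0.20. Slc7a1, the gene of the arginine and lysine carrier CAT1 (chromosome 5, 148327410 to 148399904), had the widest relative spread among kidney disease animals. It spanned 62.4 to 107 CPM in that group and 52.9 to 96.9 CPM among wild-type animals, with an interval of -0.17 to 0.29. Slc1a5, the gene of the glutamine exchanger ASCT2 (chromosome 7, 16781340 to 16798274), averaged 23.3 ± 2.38 CPM in kidney disease and 21.2 ± 2.97 CPM in wild type, a log2 change of 0.14 (SE 0.09, adjusted p = 0.55). In 6 of the 7 kidney disease libraries it lay above the wild-type mean.

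**Figure D2:**
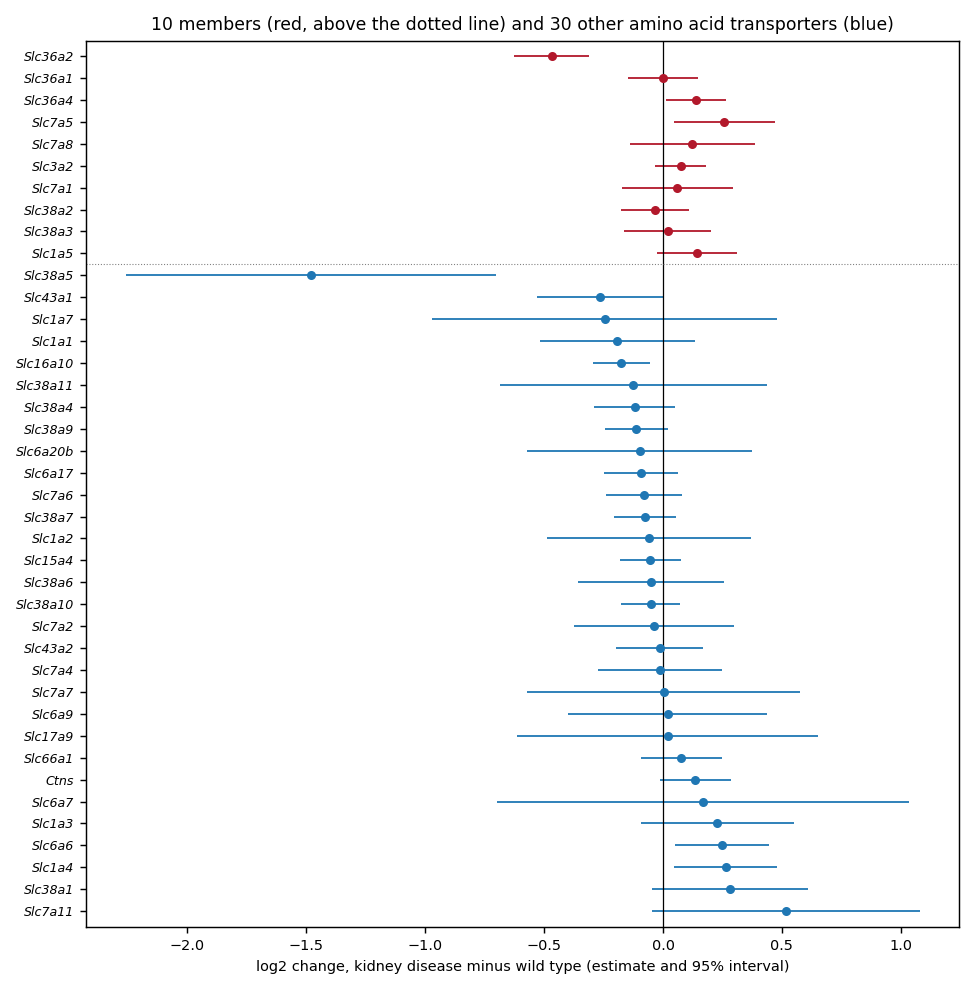
Log2 change of the 10 members (red) and of 30 other amino acid transporters with enough counts (blue), kidney disease minus wild type, with its 95% interval. Slc36a2 at -0.47 was the gene called among the 40, and Slc38a5 at -1.48 had the widest distance from 0 without passing.

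Levels between genes were compared per kilobase, as deposited FPKM over all 15 libraries. Slc38a2 was the most abundant member with a mean of 25.4 FPKM, followed by Slc38a3 at 15.7 and Slc3a2 at 10.96. Slc7a1 had 6.82, Slc36a2 5.97 and Slc1a5 5.33 FPKM, and Slc36a1 2.89, Slc36a4 1.94, Slc7a5 1.84 and Slc7a8 1.09 FPKM. Slc38a2 therefore stood above 93.5% of tested genes and Slc7a8 above 41.2%. Of the 9 pairs of neighbours in this order, 5 kept it in all 15 libraries and 4 did not: Slc7a1 exceeded Slc36a2 in 11, Slc36a2 exceeded Slc1a5 in 10, Slc36a4 exceeded Slc7a5 in 8 and Slc7a5 exceeded Slc7a8 in 14. The middle of the order differed by group. Slc36a2 exceeded Slc1a5 in 2 of 7 kidney disease libraries and in 8 of 8 wild-type libraries, and it exceeded Slc7a1 in 0 of 7 kidney disease libraries and in 4 of 8 wild-type libraries. This difference rests on the values for which Slc36a2 was chosen and was not tested. Within a group the members varied about as much as other genes. Their coefficients of variation ran from 6.48% to 18.6% in kidney disease and from 6.24% to 23.1% in wild type, beside medians of 12.1% (kidney disease) and 11.7% (wild type) over all tested genes above 1 CPM.

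**Figure D3:**
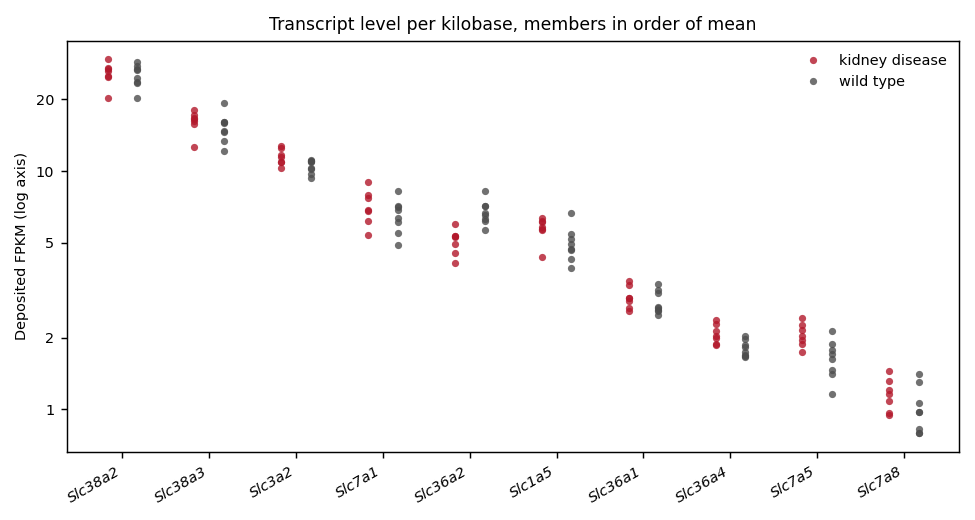
Deposited FPKM (log axis) of each amino acid transporter gene in each library, ordered by mean, kidney disease left of wild type. Levels ran from a mean of 25.4 FPKM for Slc38a2 to 1.09 FPKM for Slc7a8, and Slc36a2 lay below Slc1a5 in 5 of 7 kidney disease libraries.

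The remaining amino acid transporters of the plasma membrane, lysosome and vesicles gave no call. Of 44 listed genes 30 were tested, and 0 were called in either direction by edgeR, DESeq2 or limma-voom, with 2 higher and 2 lower at an unadjusted p under 0.05. Their median log2 change was -0.05. The smallest p belonged to Slc38a5, the gene of the glutamine carrier SNAT5, at -1.48 (SE 0.40, adjusted p = 0.074 by edgeR), a scarce transcript with 0.101 ± 0.0628 CPM in kidney disease and 0.283 ± 0.114 CPM in wild type. Slc38a5 passed without wild type 1 (adjusted p = 0.048) and with the cardiomyocyte score as a covariate (adjusted p = 0.039). Slc16a10, the gene of a carrier of aromatic amino acids, followed at -0.18 (SE 0.06, adjusted p = 0.20), and passed without wild type 7 (adjusted p = 0.043). Slc6a6, the gene of the taurine transporter, had 205 ± 32.6 CPM in kidney disease and 173 ± 26.6 CPM in wild type, a log2 change of 0.25 (SE 0.10, adjusted p = 0.30). Slc1a4, which encodes the neutral amino acid exchanger ASCT1, was at 0.26 (SE 0.11, adjusted p = 0.32).

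Mitochondrial carriers of amino acids and related compounds gave no call in edgeR. All 10 listed genes were tested and 8 had negative log2 changes, with a median of -0.11. edgeR and limma-voom called 0 of them and DESeq2 called 1 lower, and 2 were lower at an unadjusted p under 0.05. The gene DESeq2 called was Slc25a26, which carries S-adenosylmethionine into mitochondria, with 23.6 ± 1.20 CPM in kidney disease and 27.9 ± 3.15 CPM in wild type. Its log2 change was -0.24 (SE 0.07, adjusted p = 0.093 by edgeR), and it also passed with upper-quartile scaling (adjusted p = 0.045), with a filter of at least 1 CPM (adjusted p = 0.042) and without wild type 7 (adjusted p = 0.0078). Slc25a44, the carrier of branched-chain amino acids, was at -0.16 (SE 0.06, adjusted p = 0.24). The glutamate carrier gene Slc25a22 was at -0.12 (SE 0.10, adjusted p = 0.72), and Slc25a29, the gene of a carrier of basic amino acids, was also at -0.12 (SE 0.12, adjusted p = 0.77).

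Genes that sense amino acids or respond to their shortage showed 1 call. None of 34 tested genes of amino acid sensing by mTORC1 was called by edgeR, DESeq2 or limma-voom, with 1 higher and 3 lower at an unadjusted p under 0.05 and a median log2 change of 0.04. The smallest p in that list belonged to Rptor, which encodes the scaffold of mTORC1, at -0.16 (SE 0.06, adjusted p = 0.22 by edgeR), followed by Wdr59 at -0.18 (SE 0.07) and the leucine-sensor family gene Sesn3 at -0.17 (SE 0.07). Seh1l, which encodes a subunit shared with the nuclear pore, was at 0.14 (SE 0.07). Of 27 tested genes of the ATF4 response, Nupr1 rose and none fell. Nupr1, a stress-induced chromatin protein gene, had 3.79 ± 0.492 CPM in kidney disease and 2.55 ± 0.444 CPM in wild type, a log2 change of 0.57 (SE 0.12, adjusted p = 0.029 by edgeR). The call was lost, at adjusted p = 0.050 to 0.064, when kidney disease 4, 5, 6 or 7 or wild type 3, 4, 5 or 6 was left out, and within the libraries led by mt-Co1 (adjusted p = 0.15). Atf5 at 0.29 (SE 0.09, adjusted p = 0.17), Trib3 at 0.37 (SE 0.15, adjusted p = 0.27) and Atf4 itself at 0.16 (SE 0.09, adjusted p = 0.49) did not pass, and the list's median was 0.03. Atf5 passed within the libraries led by mt-Co1 (adjusted p = 0.043) and with the leading gene (adjusted p = 0.027) or the cardiomyocyte score (adjusted p = 0.016) as a covariate.

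Regulators of transporter traffic gave no call in any of the 3 tools, with 1 of 10 higher at an unadjusted p under 0.05. Akt1, the gene of a kinase that promotes carrier insertion, was at 0.18 (SE 0.07, adjusted p = 0.28 by edgeR), and passed with the cardiomyocyte score as a covariate (adjusted p = 0.016). Sgk1, a kinase gene induced by corticosteroids, varied widely, with 76.6 ± 34.5 CPM in kidney disease and 55.4 ± 19.3 CPM in wild type (adjusted p = 0.43). The related kinase gene Sgk3 was at 0.09 (SE 0.06, adjusted p = 0.54), and Nedd4l, the gene of a ubiquitin ligase that removes carriers from the membrane, at -0.10 (SE 0.06, adjusted p = 0.55).

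PAT2 is known from mice as a surface protein of brown and beige adipocytes, so adipocyte transcripts are set beside Slc36a2. The 12 adipocyte markers summed to between 20.4 and 43.3 CPM (kidney disease) and between 23.2 and 128 CPM (wild type), with medians of 27.1 CPM in both. Wild type 1 and 2 stood apart with 92.4 and 128 CPM, and wild type 2 also had the most Slc36a2. Of the 12, 7 had enough counts and none was called, with 3 lower at an unadjusted p under 0.05. All 7 had negative log2 changes. With no filter on low counts, 2 of the 12 were called lower. Adipoq, the adiponectin gene, had 1 to 125 counts (kidney disease) and 19 to 298 counts (wild type) in a library, and the brown fat gene Ucp1 did not pass the filter. Among the 7 tested markers Cidea had the highest mean, 17.8 CPM in kidney disease and 21.5 CPM in wild type. Adipoq averaged 0.640 and 1.65 CPM, so the sum weights Cidea far more than Adipoq. Kidney disease 6, with 1 Adipoq count, still summed to 22.6 CPM. Without wild type 1 and 2, the log2 changes of Adipoq and Plin1 were 0.26 and 0.03, against -1.34 and -1.66 with all animals, and that of Slc36a2 was -0.42 (SE 0.08). With the adipocyte score as a covariate it was also -0.42 (SE 0.08). The part of adipocyte transcripts in the level of Slc36a2 was not tested further.

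**Figure D4:**
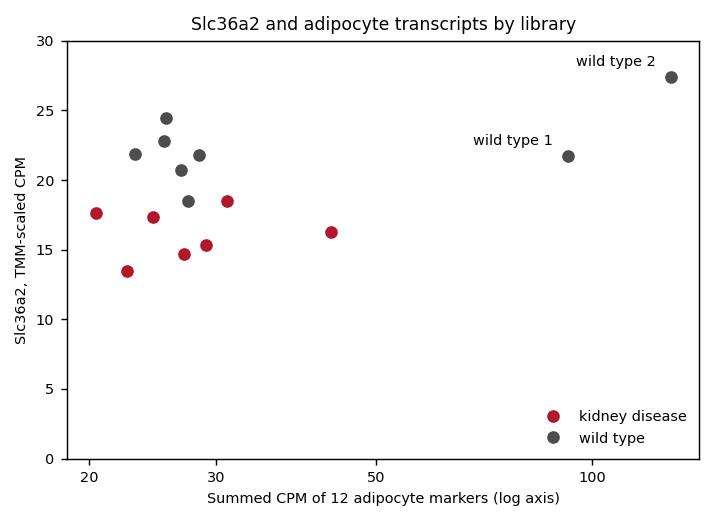
Slc36a2 (TMM-scaled CPM) against the summed CPM of 12 adipocyte markers (log axis), one point per library. Wild type 1 and 2 lie far to the right at 92.4 and 128 CPM of markers, and the other 6 wild-type libraries span 23.2 to 28.4 CPM of markers, within the kidney disease span of 20.4 to 43.3 CPM. Cidea, at means of 17.8 CPM (kidney disease) and 21.5 CPM (wild type), weighs most in the sum.

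Transcripts of other cell types differed between the groups. Of the macrophage markers 8 of 11 rose, and their summed level spanned 423 to 597 CPM (kidney disease) and 311 to 372 CPM (wild type). Within the libraries led by mt-Co1, 5 of the 11 rose. Of the B cell markers 5 of 6 rose (16.9 to 27.4 CPM in kidney disease, 7.10 to 15.001 CPM in wild type). That count was 3 when any of kidney disease 2 to 6 or wild type 1, 3, 4 or 6 was left out, and 1 within the libraries led by mt-Co1. It was 3 or fewer in 5 of the 13 alternatives other than leaving out a single library, the mt-Co1 fit among them. Of the fibroblast markers 4 of 8 rose (856 to 1011 CPM in kidney disease, 755 to 914 CPM in wild type). The fibroblast count was 0 to 2 when any of kidney disease 1 or 3 to 7 or wild type 1 or 3 to 6 was left out, and 0 within the libraries led by mt-Co1. It also moved markedly in 5 of those 13 alternatives, the mt-Co1 fit among them. None of 10 cardiomyocyte markers was called by any of the 3 tools, with 3 lower at an unadjusted p under 0.05 and sums of 70726 to 79557 CPM (kidney disease) and 71628 to 93668 CPM (wild type). All 7 erythroid markers were lower at an unadjusted p under 0.05 and none was called (310 to 822 CPM in kidney disease, 559 to 1076 CPM in wild type). The erythroid marker Slc4a1 passed as lower with the cardiomyocyte score as a covariate (adjusted p = 0.045). Of the 3 mesothelial markers, Wt1 rose, and its call was lost without kidney disease 5, wild type 3 or wild type 5 (adjusted p = 0.050 to 0.058 by edgeR) and within the libraries led by mt-Co1 (adjusted p = 0.16). No endothelial, smooth muscle and pericyte, T cell, Schwann cell or atrial marker was called with all animals. Rgs5, of the smooth muscle and pericyte list, passed as higher with the leading gene (adjusted p = 0.045) or the cardiomyocyte score (adjusted p = 0.037) as a covariate. The atrial sum spanned 31.7 to 1690 CPM (kidney disease) and 34.4 to 1401 CPM (wild type). The part of the immune, stromal and blood transcripts in the transporter values was not tested. With the cardiomyocyte score as a covariate the log2 change of Slc36a2 was -0.47 (SE 0.08). Divided by Myh6 in each library, however, Slc36a2 overlapped between the groups. On a common arbitrary scale this ratio spanned 0.362 to 0.496 (kidney disease) and 0.451 to 0.636 (wild type). Kidney disease 5 and 6 lay above wild type 1 and 8. The ratio was not tested.

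Libraries were grouped by the gene that took the most reads. The gene with the most counts was mt-Co1 in 10 libraries and Ttn in 5. The division is graded: mitochondrial genes took 11.5% of counts in kidney disease 3, led by mt-Co1, and 11.7% in wild type 6, led by Ttn. This share ran from 10.5% to 12.8% in kidney disease and from 11.7% to 14.4% in wild type. The difference in share was not tested. Among libraries led by mt-Co1, Slc36a2 averaged 15.8 ± 2.06 CPM in kidney disease (SD, n = 4) and 22.8 ± 2.97 CPM in wild type (SD, n = 6). Among libraries led by Ttn, it averaged 16.7 ± 1.59 CPM in kidney disease (SD, n = 3) and 21.2 ± 0.751 CPM in wild type (SD, n = 2). Leaving out each library in turn gave log2 changes from -0.50 to -0.42, and other choices of scaling, filter, tool or covariate from -0.53 to -0.42.

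**Figure D5:**
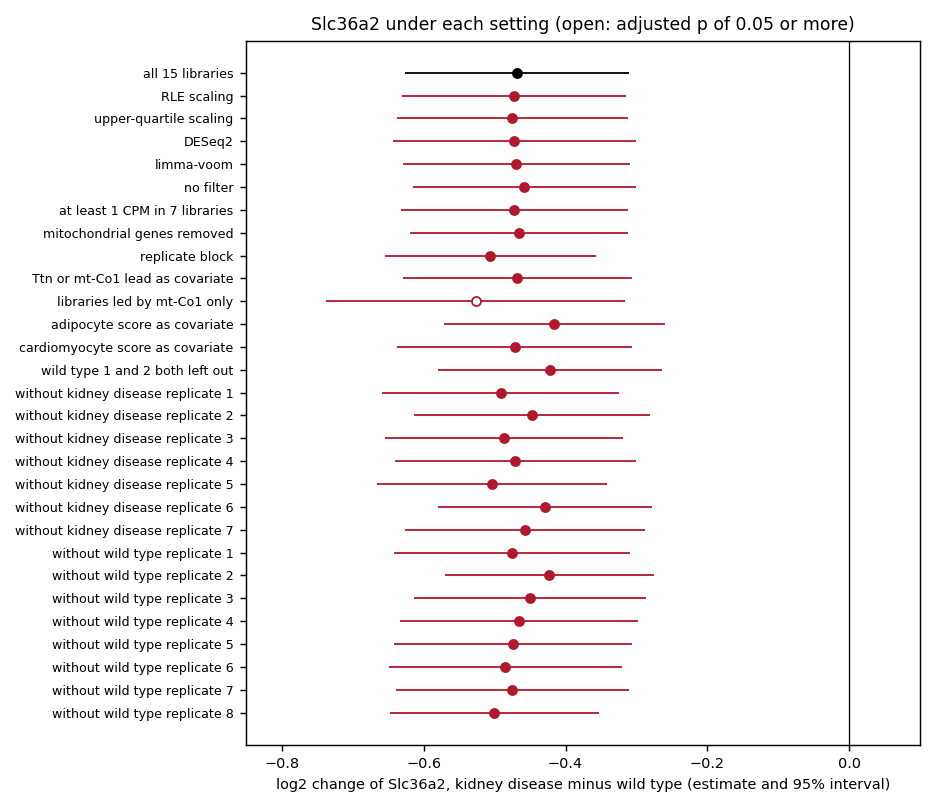
Log2 change of Slc36a2, kidney disease minus wild type, with its 95% interval, for all 15 libraries (black) and for each alternative (red), an open point marking an adjusted p of 0.05 or more. The estimates ran from -0.53 to -0.42, and the open point is the fit within the 10 libraries led by mt-Co1.

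Variation within the groups was compared gene by gene, after subtracting each group's mean log2 CPM, over the 15 libraries. Among 14523 protein-coding genes, those most like Slc36a2 were Prkca, which encodes protein kinase C alpha (Pearson r 0.89, Spearman rho 0.89), and the cardiac transcription factor gene Tbx20 (r 0.88, rho 0.90). They were followed by Gpc4 (r 0.86, rho 0.85), C3 (r 0.85, rho 0.80), Esr1 (r 0.85, rho 0.66) and Ston2 (r 0.84, rho 0.74). Leaving out wild type 2 and 8, which lie farthest from the median of Slc36a2, gave 0.71 to 0.86 for the 6 genes. Kidney disease 6, the lowest of its group for Slc36a2, Prkca and Tbx20, was kept in all of these values. They are the extremes of many comparisons, and libraries share composition as well as biology, so the values are a description. Their group changes differed: Ston2 fell (-0.49, SE 0.11, adjusted p = 0.036 by edgeR), Prkca was at -0.24 (SE 0.06, adjusted p = 0.065), and C3 and Tbx20 were at 0.31 (SE 0.13, adjusted p = 0.31) and 0.06 (SE 0.07, adjusted p = 0.84). Prkca passed with DESeq2 (adjusted p = 0.015), with a filter of at least 1 CPM or the leading gene as a covariate (adjusted p = 0.049 in both), with the cardiomyocyte score (adjusted p = 0.043) and without wild type 8 (adjusted p = 0.032). The Ston2 call was lost, at adjusted p = 0.054 to 0.074, in 11 of the 15 fits that left out a library, the exceptions being kidney disease 1 and 5 and wild type 7 and 8. It was also lost with the adipocyte score (adjusted p = 0.090), without wild type 1 and 2 (adjusted p = 0.12) and within the libraries led by mt-Co1 (adjusted p = 0.17). Among the other members, Slc7a8 was most like Slc36a2 (r 0.76, rho 0.70), with 0.413% of the protein-coding genes above it, and Slc7a5 least (r -0.03).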

How the data were processed

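RNA was sequenced from 15 left ventricles, 7 kidney disease and 8 wild type. The design text counts them as biological replicates. Ribosomal RNA was depleted from RNA of integrity number 8 or more, per the labels' protocols. The submitters' processing notes name GRCm38 and the tools featureCounts 2.0.3, Subread, STAR 2.7.9a and bcl2fastq, in no order. The deposited tables hold raw counts, CPM and FPKM per gene. The deposited CPM and FPKM were recomputed from the counts within a relative tolerance of 1e-06. Library totals were 48748379 to 65519279 counts, and no pair of one group agreed within sampling noise. Symbols, exons and transcripts came from GENCODE M21 on GRCm38, which held 55227 of the identifiers.

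Counts were filtered with filterByExpr (minimum count 10), TMM-scaled and modelled on group alone in edgeR 4.0.16 under R 4.3.3, using its quasi-likelihood F test. Benjamini-Hochberg adjustment ran over the whole set of 20718 genes, and a gene was called at an adjusted p under 0.05. SE is the absolute log2 change divided by the root of F. The 95% intervals use the normal multiple of the SE, so for edgeR they are narrower than its F test implies. CPM in the text is TMM-scaled. The pipeline was tested on simulated counts. The members and lists were chosen with earlier results of these data known. Named genes are the members, up to 4 genes of each pathway list and 2 of each marker list with the smallest p, the nearest tested neighbours of Slc36a2, and the 6 genes most like it. Ucp1 and Slc36a3 fall outside the rule and were added after their values were seen. Alternatives were scaling by RLE or by the upper quartile, the tools DESeq2 1.42.0 and limma-voom (limma 3.58.1), other filters, removal of mitochondrial genes, a replicate block, the gene that led the library, an adipocyte score, and leaving out each library. A cardiomyocyte score and removal of wild type 1 and 2 were added after seeing the data. The gene named Samtor in the mTORC1 list had no identifier and was not used.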

Additional observations from a re-analysis of the deposited data

Results flagged for a closer look

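Single libraries far from the rest of their group were searched for among the named genes, in 130 groups of values. The search found 15. Were the groups independent, chance alone would find about 1 in 20, which would be 6.5. The groups share the same libraries, and 6 of the genes were picked for likeness to Slc36a2, so no excess over chance is read. None of the 15 belonged to a member of the transporter set. Kidney disease 6 accounted for 7 of them: it had the lowest Rptor (58.9 CPM), Myh6 (27758 CPM), Prkca (29.1 CPM) and Tbx20 (155 CPM) of its group and the highest Atf4 (73.5 CPM), Sgk1 (148 CPM) and Kcnj8 (66.2 CPM). That library also had the least Slc36a2 of its group, and without it the log2 change of Slc36a2 was -0.43. Kidney disease 3 had the highest Igkc (7.25 CPM) and Ighm (15.8 CPM), kidney disease 1 the highest Cd4 (1.83 CPM), and kidney disease 2 the lowest Pi16 (39.1 CPM). Among wild-type libraries, wild type 1 had the lowest Wdr59 (11.8 CPM), wild type 7 the lowest Atf5 (34.5 CPM) and Rgs5 (362 CPM), and wild type 2 the highest Trac (0.756 CPM).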

How the results depend on the processing

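Slc36a2 kept its direction in all 28 alternatives, and its call in all but the fit within the libraries led by mt-Co1, where the change was -0.53 (adjusted p = 0.053) with fewer animals and 0 members were called. No member was called higher in any alternative. Leaving out each library gave 1 member lower throughout, and -0.50 to -0.42 for Slc36a2. Of the other amino acid transporters, 1 was called lower with the cardiomyocyte score as a covariate and 0 to 1 with a library left out. Genes called higher, 168 with all animals, numbered 379 with DESeq2, 63 with the replicate block, 335 with the gene that led the library as a covariate, 50 within libraries led by mt-Co1, 109 with the adipocyte score, 586 with the cardiomyocyte score, 111 without wild type 1 and 2 together, and 67 to about 2.0e+02 with a library left out. Genes called lower, 98 with all animals, numbered 261, 51, about 1.9e+02, 36, 57, 255 and 41 in these settings in the same order, 65 with no filter, 154 with at least 1 CPM in 7 libraries, and 30 to about 1.9e+02 with a library left out. The replicate block changed no member's call and gave Slc36a2 -0.51. Under it Nupr1 lost its call (0.57, adjusted p = 0.068), leaving 0 of the ATF4 response, and 3 B cell and 0 fibroblast markers were called higher. The replicate numbers were not taken to pair the animals, since the deviations of same-numbered animals correlated at -0.20 to 0.42 and only replicates 1 and 7 correlated best with their own number.

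Some fitted changes turned sign. Slc36a1 was at 0.0058 with limma-voom, 0.010 with no filter, 0.00301 without mitochondrial genes, 0.038 with the adipocyte score, 0.023 without wild type 1 and 2 and -0.0397 to 0.0272 with a library left out. Slc38a3 was at -0.0115 with the adipocyte score and -0.0375 to 0.0750 with a library left out, Slc38a2 at -0.0648 to 0.0113 and Slc7a1 at -0.0205 to 0.11. With the cardiomyocyte score Slc25a29 was at 0.02 and Gm12231 at 0.0408, and Esr1 was at -0.10 within libraries led by mt-Co1. Without wild type 1 and 2 together, Plin1 was at 0.0262 and Adipoq at 0.26, against -1.66 and -1.34 with all animals. None of the values with a turned sign was called, and the cause was not tested. The least abundant member had at least 195 counts in a library. How reads that fit several places were counted was not stated in the sources at hand.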
